A study of Mus musculus with 14 samples.

Results

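Odorant-binding proteins and nasal lipocalins are small secreted proteins of the nose. They share the lipocalin fold, a barrel of strands around a pocket that holds small fat-soluble molecules. They are made mainly by glands that open onto the nasal lining and are shed into the mucus, where they can carry odorants and other ligands. The rule for this group lists 9 gene symbols: Obp1a, Obp1b, Obp2a, Obp2b, Lcn3, Lcn4, Lcn11, Lcn13 and Lcn14. Of these, 7 were present among the 51211 symbols of each expression table. Lcn13 and Lcn14 were absent as symbols, and RefSeq lists them as other names of Obp2a and Obp2b, so both are covered under those names.

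RNA of whole olfactory epithelia was measured in 14 mice at postnatal day 5 (P5), in 2 experiments. In the Kir2.1 experiment, 3 mice carrying OMP-IRES-tTA and tetO-Kir2.1-IRES-tauLacZ were compared with 3 control mice that were heterozygous for OMP-IRES-tTA alone. Kir2.1 is a potassium channel that silences spontaneous firing, and its expression was driven from the Omp locus, which is active in mature olfactory sensory neurons. The study states that the silencing reaches vomeronasal neurons too. Expression of the transgene in glands was not examined here. In the PEA experiment, 4 wild-type mice exposed continuously to 2-phenylethylamine (PEA), an odorant that mice avoid, from P0 to P5 were compared with 4 unexposed wild-type mice. The records give C57BL/6 as the strain of all mice, whereas the study's methods name CD-1 pups for the PEA experiment. The records label the Kir2.1 mice "Kir2.1-Off", a name the study uses elsewhere for mice fed doxycycline from weaning, but the epithelia came from P5 pups, and the name Kir2.1 mice is used here. By the study's methods, the controls of the Kir2.1 mice were littermates. Which mice shared a litter is not given in the sources used here, so the tests measure the spread between these mice.

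The values are read estimates per gene after the authors' scaling by DESeq2, and are referred to as normalized counts. They summed to between 33049111 and 34198478 per mouse in the Kir2.1 experiment and to between 11476120 and 12467331 in the PEA experiment. These sums come after scaling and do not give the depth of a library. The transgene was visible in every Kir2.1 mouse, since Kcnj2, which encodes Kir2.1, was 986 to 1274 in their control mice but 17926 to 24193 in Kir2.1 mice. Genes averaging at least 10 normalized counts in an experiment were fitted with limma after the transform log2(normalized count + 1), and fold changes are on that scale, which understates the changes of genes with low counts.

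The 7 genes lie in 2 places of the genome (GRCm38). Obp2a (25700043 to 25703326), Obp2b (25737009 to 25740097), Lcn3 (25765569 to 25768099) and Lcn11 (25777017 to 25780279) sit on the forward strand within 80.2 kb of chromosome 2, and Lcn4 (26667674 to 26671282, reverse strand) lies 887 kb beyond them. Obp1a (78085505 to 78091374, reverse strand) and Obp1b (78186777 to 78192292, forward strand) lie on the X chromosome, inside a run of 6 related genes that spans 381 kb. The remaining genes of this run are Gm14744, 5430402E10Rik, Gm5938 and Gm14743, and RefSeq gives Obp6 as another name of Gm5938. GENCODE classes all of them as protein-coding, and each of the 7 members has 1 annotated transcript of 652 to 797 bases.

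The start regions of Obp2a and Obp2b were similar, and 5 of the 7 members held the same short element. The 6 stretches below run from base -80 to base -11 before the RefSeq start site (GRCm38), 5′ to 3′ on the strand of the gene, with the letters TATAAA in capitals. They are shown because these 5 hold the element while Lcn11, the most abundant member by its median level, does not.
Obp1a, chrX:78091385-78091454, reverse strand: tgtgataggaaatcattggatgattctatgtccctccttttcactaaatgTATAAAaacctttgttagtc
Obp1b, chrX:78186728-78186797, forward strand: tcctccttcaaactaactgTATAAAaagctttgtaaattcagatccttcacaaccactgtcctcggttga
Obp2a, chr2:25699994-25700063, forward strand: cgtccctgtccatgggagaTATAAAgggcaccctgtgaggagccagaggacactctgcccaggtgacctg
Obp2b, chr2:25736927-25736996, forward strand: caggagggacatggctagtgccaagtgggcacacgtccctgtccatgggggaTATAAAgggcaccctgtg
Lcn3, chr2:25765453-25765522, forward strand: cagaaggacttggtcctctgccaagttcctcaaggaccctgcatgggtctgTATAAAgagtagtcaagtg
Lcn11, chr2:25776937-25777006, forward strand: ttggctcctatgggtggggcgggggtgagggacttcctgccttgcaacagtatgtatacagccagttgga

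TATAAA was found on either strand in the 300-base promoter windows of 5 of the 7 members, against 13.6% of 32851 such windows of all genes. It was absent from the windows of Lcn4 and Lcn11. Its first base lay at -30 from the RefSeq start in Obp1a, -28 in Obp2b, -29 in Lcn3 and -61 in both Obp1b and Obp2a. From the GENCODE start it lay at -30 in Obp1a, Obp1b, Obp2a and Obp2b alike and at -65 in Lcn3. 4 other motifs were searched on both strands of the same windows. CCAAT was present in 4 of 7 members against 37.4% of all windows, CAGCTG (an E-box) in 1 against 16.3%, and TGTTTAC (forkhead) and TGACGTCA (cAMP response element) in 0 against 3.65% and 1.79%. These matches are letters in a window and were not tested as sites. Across the whole 300 bases, promoter identity was counted over alignment columns, gaps included. It was 79.0% for Obp2a and Obp2b (263 of 333 columns), 55.9% for Obp1a and Obp1b, and 43.4% to 51.9% for the other pairs of members. For Obp1b and its X-linked copy Gm14743 it was 94.2% (291 of 309 columns). The windows of Obp2a and Obp2b start at different points of a similar sequence, as do those of Obp1b and Gm14743. This offset adds gaps, so the figures for these pairs understate how alike the stretches held by both windows are.

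The close copies limit what the values can say of single genes. Between transcripts, identity over alignment columns, gaps included, was 69.5% for Obp1a and Obp1b and 70.9% for Obp2a and Obp2b. It was 94.1% for Obp1b and Gm14743 and 84.7% for Obp1a and Gm5938. Of the 40-base stretches of Obp1b, the read length of the Kir2.1 experiment, 76.9% were also found in Gm14743, and so were 52.8% of its 150-base stretches, the read length of the PEA experiment. The value of Obp1b is therefore uncertain, because reads from Obp1b and Gm14743 could be split between them. Of the 40-base stretches, 11.3% of Obp1a were shared with Gm5938 and 12.9% of Obp2a and 13.1% of Obp2b with each other, and none of their 150-base stretches was shared. Lcn3, Lcn4 and Lcn11 shared no stretch of either length with any other gene.

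**Figure D1:**
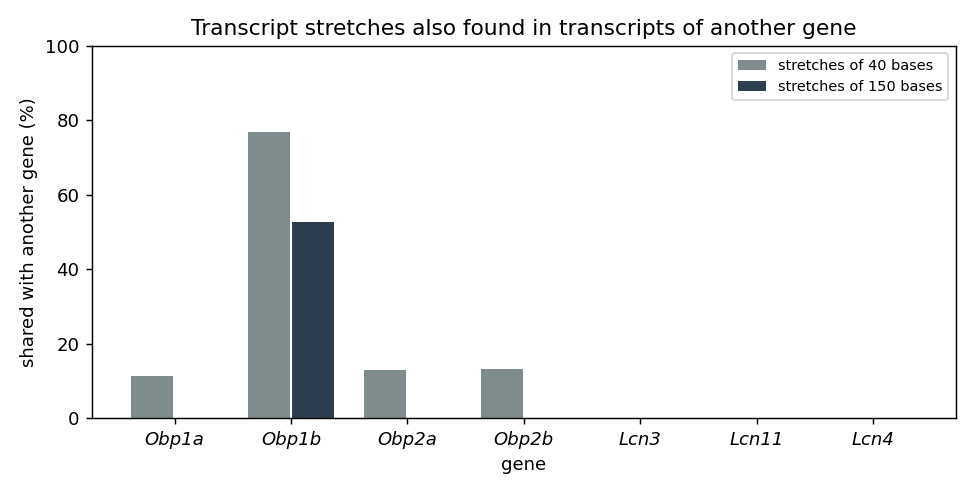
Percent of the stretches of 40 and 150 bases in each member's annotated transcript (y axis) that also occur in a transcript of another gene, by gene (x axis). Obp1b stands apart at 76.9% and 52.8%, the other genes reach at most 13.1% for 40 bases, and no other gene has a shared stretch of 150 bases.

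By its median level, Lcn11 was the most abundant member in both experiments. Levels of different genes were compared per kilobase of transcript, within an experiment. In the PEA experiment the median over 8 mice was 29268 normalized counts per kilobase for Lcn11 (lowest 17581, highest 39840). It was 4631 for Obp2a (1458 to 6261), 3071 for Obp1a (2243 to 6980), 1661 for Lcn3 (854 to 2726), 1059 for Obp2b (471 to 1401) and 404 for Obp1b (288 to 1150). Every mouse had more Lcn11 per kilobase than any mouse had of another member, whereas the ranges of neighbouring genes from Obp2a down to Obp1b overlapped. Lcn4, which has been described in vomeronasal and nasal glands, was near 0 (0 to 6.72 per kilobase).

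In the Kir2.1 experiment the order was Lcn11, Lcn3, Obp2a, Obp2b, Obp1a, Obp1b and Lcn4, and the spread was wider. The median over 6 mice was 4063 per kilobase for Lcn11 (1116 to 58593) and 1284 for Lcn3 (22.6 to 2124). Obp2a and Obp2b had medians of 453 (104 to 1708) and 448 (46.6 to 671), Obp1a had 39.3 (8.41 to 873) and Obp1b had 1.90 (0 to 118). The ranges of all neighbours in this order down to Obp1b overlapped, and in control mouse 1 Lcn3 (2124) was above Lcn11 (1116). Lcn4 was listed at 0 in all 6 mice.

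The members together made up between 0.00700% and 0.122% of the summed values of a mouse in the Kir2.1 experiment and between 0.138% and 0.281% in the PEA experiment. Lcn11 alone supplied between 60.3% and 79.4% of the members' sum in the 8 mice of the PEA experiment and between 24.0% and 92.4% in the 6 mice of the Kir2.1 experiment. Within a mouse, the ratio of Lcn11 to Obp1a was between 57.8 and 148 in the Kir2.1 experiment and between 3.44 and 15.3 in the PEA experiment, with no overlap. The experiments differed in selection of RNA, read length, strandedness of the libraries and, by the study's methods, strain. These cannot be told apart as sources of the difference. Obp1a was also low in most mice of the Kir2.1 experiment (lowest 6.37), which makes those ratios imprecise. In bulk samples of a whole epithelium, fewer gland cells and less RNA per cell cannot be told apart.

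**Figure D2:**
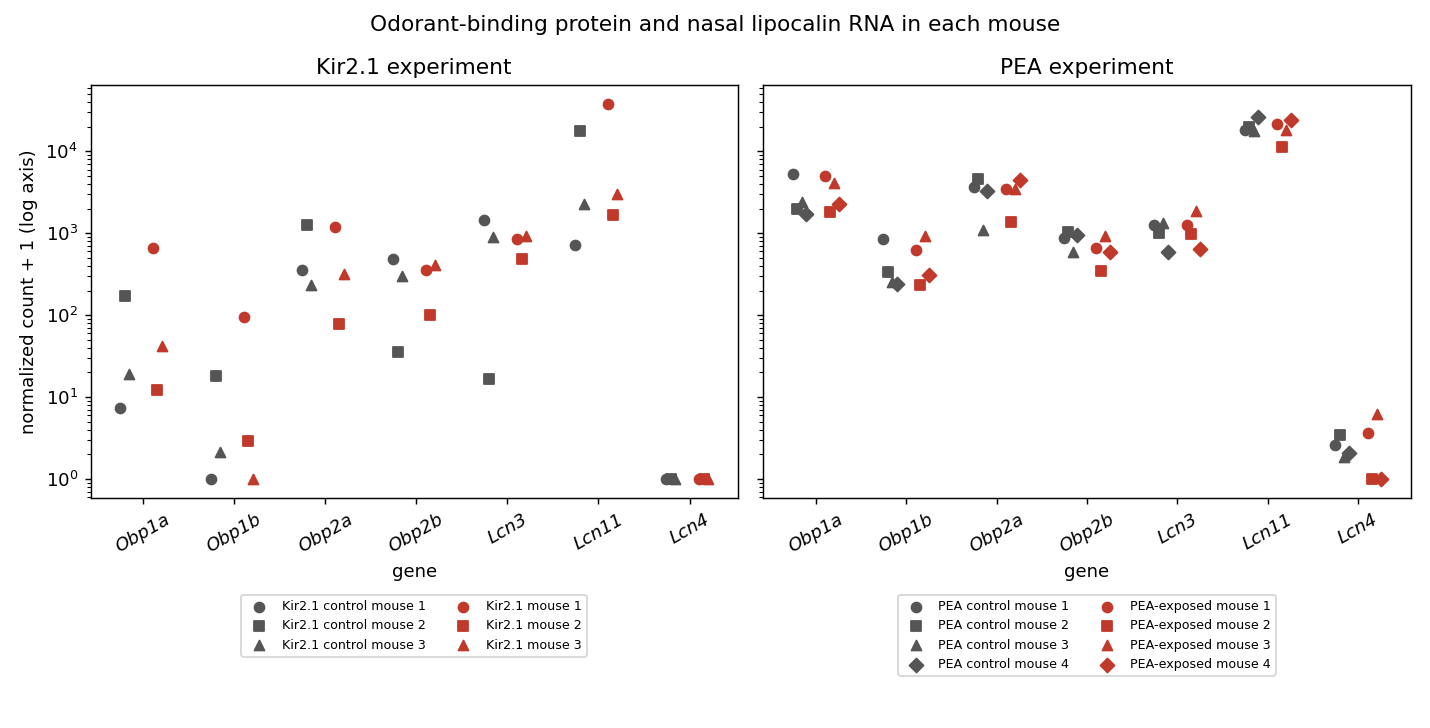
Normalized count plus 1 (y axis, log scale) of each member (x axis) in each mouse, in the Kir2.1 experiment (left) and the PEA experiment (right), with grey points for control mice and red points for Kir2.1 or PEA-exposed mice. Points of the 2 colors overlap for every gene, Lcn11 is highest in the PEA experiment, and the points of a gene are farther apart in the Kir2.1 experiment.

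No member passed the test between Kir2.1 mice and control mice. Of the 7 present, 6 reached the mean of 10 and were tested, and 0 were called by limma at an adjusted p below 0.05, against 0.353% of all 19807 genes tested. At an unadjusted p below 0.05 the count was also 0. In 0 of 6 members did all Kir2.1 mice lie on one side of all control mice, which was so for 16.3% of all genes tested. The median log2 fold change of the 6 members was 0.93, with 5 above 0 and 1 below, beside a median of 0.01 over all genes. Obp1b reached the mean of 10 only through Kir2.1 mouse 1 (group means of 6.02 for controls and 32.0 for Kir2.1). Without Obp1b, 5 members were tested, 0 were called, 4 were above 0, and the median was 0.90.

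Lcn11 was 727, 17570 and 2298 in control mice 1, 2 and 3 and 38203, 1660 and 2999 in Kir2.1 mice 1, 2 and 3. Control mouse 2 and Kir2.1 mouse 1 were high, the other 4 were low, and the groups overlapped. The log2 fold change was 0.90 (SE 1.44, 95% interval -2.48 to 4.28, adjusted p = 0.889 by limma), an interval that reaches from 0.179-fold to 19.4-fold.

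Obp1a, whose secreted protein is known to pair with that of Obp1b, had the same 2 high mice. Its values were 6.37, 171 and 18.3 in the control mice and 661, 11.2 and 41.2 in the Kir2.1 mice, which is 1.27 as a log2 fold change (SE 1.63, limma adjusted p = 0.853). Obp1b, its partner gene, was 0, 16.9 and 1.12 in the control mice and 94.2, 1.91 and 0 in the Kir2.1 mice, which is 0.96 as a log2 fold change (SE 1.82, limma adjusted p = 0.912). Both genes were thus low in 4 of 6 mice of either genotype.

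Obp2a was also highest in these 2 mice, though less far above the rest. It was 354, 1271 and 233 in the control mice and 1180, 77.6 and 320 in the Kir2.1 mice, which is -0.61 as a log2 fold change (SE 1.01, limma adjusted p = 0.894). Its neighbour Obp2b was 491, 34.1 and 300 in the control mice and 356, 99.6 and 412 in the Kir2.1 mice, which is 0.50 as a log2 fold change (SE 1.00, limma adjusted p = 0.915). Control mouse 2, high in Obp2a, was the lowest of the 6 in Obp2b. The ratio of Obp2a to Obp2b was accordingly 37.3 in control mouse 2 and 3.31 in Kir2.1 mouse 1, while it lay between 0.721 and 0.779 in the other 4 mice.

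Lcn3, a lipocalin known from vomeronasal and posterior nasal glands, was 1453, 15.4 and 902 in the control mice and 854, 487 and 936 in the Kir2.1 mice. A single mouse, control mouse 2, was far below the other 5. The log2 fold change was 1.39 (SE 1.54, 95% interval -2.24 to 5.02, adjusted p = 0.823 by limma), and it was -0.65 without that mouse (adjusted p = 0.711). The ratio of Lcn11 to Lcn3 ranged from 0.501 in control mouse 1 to 1139 in control mouse 2.

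**Figure D3:**
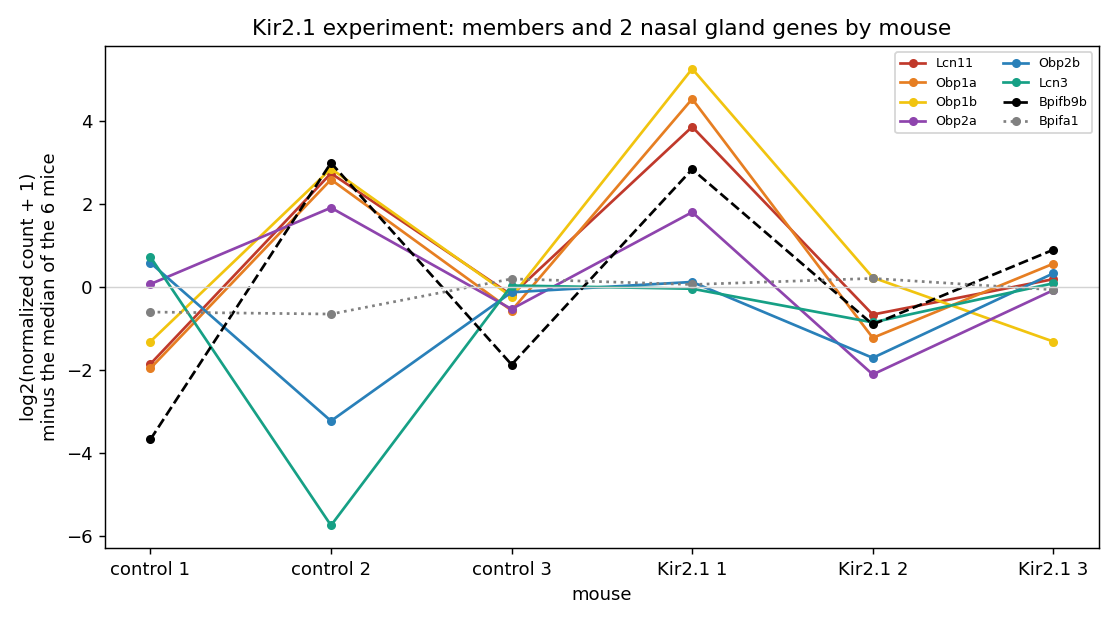
Log2(normalized count + 1) of 6 members and of the gland genes Bpifb9b and Bpifa1, each minus its median over the 6 mice (y axis), for each mouse of the Kir2.1 experiment (x axis), with lines joining values of the same gene for reading only. Lcn11, Obp1a, Obp1b, Obp2a and Bpifb9b are high in control mouse 2 and Kir2.1 mouse 1, Obp2b and Lcn3 are low in control mouse 2, and Bpifa1 stays within 1 unit of its median.

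Other genes were also highest in control mouse 2 and Kir2.1 mouse 1. This was noticed in the values and is given as a description. These 2 mice were the highest 2 of 6 for 1295 of 19807 genes, and for 18 genes the lower of them was at least 5 times the third highest mouse. Any pair of mice stood so far above the rest for 95 genes. Besides Lcn11 and Obp1b, the 18 were the X-linked neighbours Gm14744 and 5430402E10Rik, the major urinary protein gene Mup4, the gland gene Bpifb9a, Scgb1b27, Pip, Odam, Klk14, Klk1b11, A4gnt, the keratin gene Krt6a, Shisa6, 5430401F13Rik, Gm6619, BC051076 and Gm31544. No group of genes was tested among them. Gm14744 was 29.6, 4040 and 107 in the control mice and 15395, 127 and 356 in the Kir2.1 mice.

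Of the 12 gland markers, Bpifb5, Bpifb9a and Bpifb9b were far higher in the same mice, the lower of which had 3.40, 6.08 and 3.84 times the value of the third highest mouse. Bpifb9b, a secreted protein of nasal glands, was 604143 in control mouse 2 and 542878 in Kir2.1 mouse 1, against 5957 to 141449 in the other 4 mice. Bpifa1, made by nasal glands and surface cells, lay between 137804 and 249882, and control mouse 2 was its lowest. Bpifb6, Aqp5 and Sox10 also had these 2 mice as their highest, but the lower of them was only 1.11, 1.01 and 1.21 times the third highest mouse. Bpifb4 lay between 15679 and 18367 and Scgb1c1 between 13343 and 19337, and neither these nor Bpifa1, Bpifb3, Muc5b and Dmbt1 had these 2 mice as their highest. Over the 12 gland markers, the summed level was 197814 to 988963 in the control mice and 357111 to 1016770 in the Kir2.1 mice, 0 of 12 were called by limma, 1 of 12 had an unadjusted p below 0.05, and no gland marker was at 0. All 12 had log2 fold changes above 0, with a median of 0.34. The part of gland content in the members' values was not tested. A covariate was made from the mean log2 value of Bpifb5, Bpifb9a and Bpifb9b, chosen after the values were seen. These markers are far higher in the same 2 mice as Lcn11, Obp1a and Obp1b. The covariate therefore follows those mice and cannot stand for gland content. With it in the fit, the log2 fold change was below 0 for Lcn11 (-0.47), Obp1a (-0.23) and Obp1b (-0.43). The fold change was farther from 0 than without the covariate for Lcn3 (2.67), Obp2a (-1.45) and Obp2b (1.10), and none was called.

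Both high mice had high Xist, the transcript of the inactive X chromosome of females, but so did 2 of the low mice. Xist ranged from 11955 to 14299 in mice 1 and 2 of either genotype and was 3.02 and 22.1 in the third control mouse and the third Kir2.1 mouse. The X-linked genes Obp1a and Obp1b were thus high in 2 of 4 mice with high Xist.

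Within a genotype the members were among the most variable genes. The SD of log2 values within groups was 2.87 for Obp1b, 2.66 for Obp1a, 2.54 for Lcn3, 2.36 for Lcn11, 1.65 for Obp2a and 1.64 for Obp2b, beside a median of 0.181 over all genes tested. Between 120 genes (for Obp1b) and 403 genes (for Obp2b) of 19807 had an SD at least as large. In the PEA experiment the members' SD was lower, from 0.381 for Lcn11 to 0.876 for Obp1b, beside a median of 0.258, and Lcn11 had 4668 of 17322 genes at or above it.

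No member passed the test between PEA-exposed and unexposed mice either. Of the 6 tested, 0 were called by limma, against 0.179% of all 17322 genes tested, and 0 had an unadjusted p below 0.05. The groups did not overlap for 0 of 6 members, against 9.32% of all genes. The median log2 fold change was 0.11, with 4 above 0 and 2 below, beside -0.02 over all genes. With 4 mice against 4, the smallest exact permutation p is 0.0286, and with 3 against 3 it is 0.1.

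Lcn11 was 18161, 19939, 17525 and 25976 in the unexposed mice and 21378, 11463, 18227 and 24333 in the exposed mice. Exposed mouse 2 was the lowest and unexposed mouse 4 the highest, with the rest intermixed. The log2 fold change was -0.15 (SE 0.22, 95% interval -0.64 to 0.34, adjusted p = 0.792 by limma), and the interval covers 0.641-fold to 1.27-fold.

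Obp1a was 5284, 1978, 2398 and 1698 in the unexposed mice and 4958, 1835, 4064 and 2252 in the exposed mice, for 0.24 as a log2 fold change (SE 0.39, limma adjusted p = 0.812). Obp1b was 845, 338, 254 and 242 in the unexposed mice and 619, 230, 917 and 306 in the exposed mice, for 0.29 as a log2 fold change (SE 0.48, limma adjusted p = 0.816). The same 3 mice, unexposed mouse 1 and exposed mice 1 and 3, were the highest 3 in both genes. Xist was low in unexposed mice 1 and 2 and exposed mouse 3 (8.14 to 14.4) and high in the other 5 (12509 to 24975), so the 3 mice highest in Obp1a and Obp1b were of both kinds.

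Obp2a was 3669, 4658, 1085 and 3272 in the unexposed mice and 3427, 1362, 3464 and 4466 in the exposed mice, for 0.06 as a log2 fold change (SE 0.46, limma adjusted p = 0.967). Unexposed mouse 3 and exposed mouse 2 were low, and the other 6 lay between 3272 and 4658. Obp2b was 884, 1026, 593 and 957 in the unexposed mice and 666, 345, 924 and 595 in the exposed mice. Of the 6 members it had the smallest p, with a log2 fold change of -0.51 (SE 0.28, 95% interval -1.12 to 0.11, adjusted p = 0.420 by limma, exact permutation p = 0.257), and the groups overlapped. It was -0.24 without exposed mouse 2 and -0.72 without exposed mouse 3.

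Lcn3 was 1258, 1015, 1326 and 584 in the unexposed mice and 1278, 981, 1865 and 648 in the exposed mice, for 0.15 as a log2 fold change (SE 0.33, limma adjusted p = 0.867). Mouse 4 of either group was its lowest. Lcn4 was 1.59, 2.46, 0.864 and 1.07 in the unexposed mice and 2.64, 0, 5.20 and 0 in the exposed mice, too low to be tested.

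**Figure D4:**
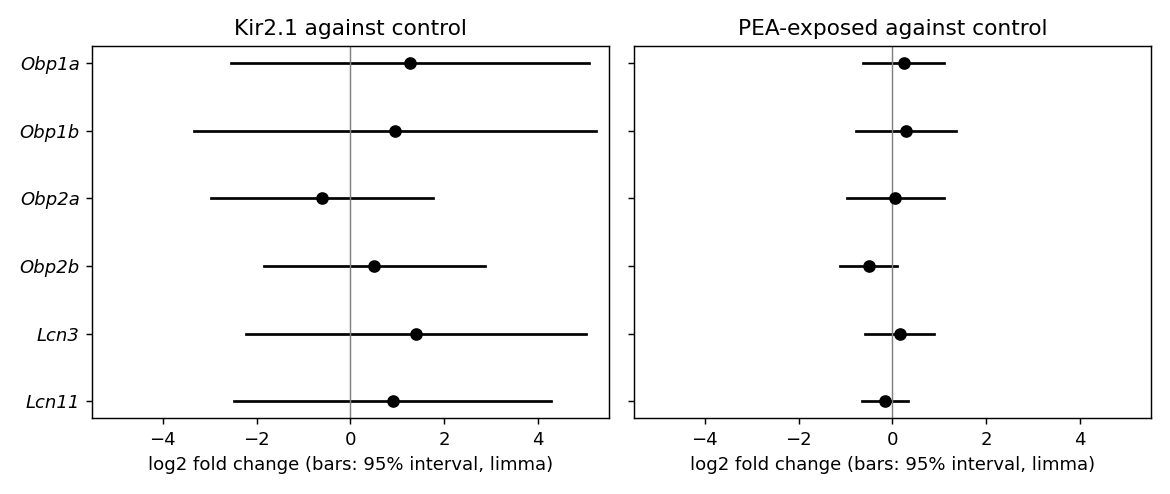
Log2 fold change (x axis, points) with its 95% interval from limma (bars) for the 6 members tested (y axis), Kir2.1 mice against control mice on the left and PEA-exposed against unexposed mice on the right. Every interval includes 0, and the intervals are wider in the Kir2.1 experiment, where that of Lcn11 runs from -2.48 to 4.28, than in the PEA experiment, where it runs from -0.64 to 0.34.

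Of 15 pairs of members over the 8 mice of the PEA experiment, Obp1a and Obp1b had the highest correlation. Pearson's r was 0.92 (exact permutation p = 0.00794, adjusted p = 0.119) and Spearman's rho was 0.81 (exact permutation p = 0.0218, adjusted p = 0.327). Without the 2 mice farthest from the median of Obp1a, r was again 0.92. No pair passed the adjustment over the 15. The ratio of Obp1a to Obp1b stayed between 4.43 and 9.44 in these mice, and that of Obp2a to Obp2b between 1.83 and 7.51. In the Kir2.1 experiment the mice fell into clusters, and no correlation between members was tested over them.

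Genes with the most similar pattern to each member were ranked among 16704 genes by the lower of the Pearson correlations over the 6 mice and over the 8 mice. The correlations serve here only to rank genes: they describe few mice that share their scaling, and in the Kir2.1 experiment they pool mice that fell into clusters. Obp1a was most like Ccdc24 (0.95), Obp1b (0.90), Plbd1 (0.85), Ccdc78 (0.82) and Cdhr3 (0.80). Obp1b was most like Obp1a (0.90), Ccdc24 (0.87), Ptger4 (0.82), Cfap74 (0.81) and Prr15l (0.80). Obp1b was at rank 2 for Obp1a, and Obp1a at rank 1 for Obp1b. In the Kir2.1 experiment Obp1b was 94.2 in Kir2.1 mouse 1, 16.9 in control mouse 2 and at most 1.91 in the other mice. It reached the mean required for testing there only through Kir2.1 mouse 1. Its correlations over those mice rest mainly on these high values, so the ranks cannot show whether the pair vary together.

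Obp2a was most like Scgb1b27 (0.88), a secretoglobin gene, and then Zfp28 (0.87), Gm9903 (0.83), Gm10451 (0.78) and Gm9776 (0.78). Obp2b was most like Lipa (0.87), which encodes lysosomal acid lipase, and then Gm46519 (0.80), Ramac (0.79), Akap9 (0.78) and Khdrbs2 (0.78). The neighbouring and similar genes Obp2a and Obp2b were in neither list of the other. Lcn3 was most like Rab19 (0.82), Ctla2a (0.80), Fam83e (0.76), Rcsd1 (0.75) and Irgm2 (0.74). Lcn11 was most like Etnk1 (0.88), Gm4544 (0.85), Olfr714 (0.85), Riok3 (0.82) and Nbr1 (0.82).

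A wider list of 18 lipocalin symbols gave the same count of calls. Of these, 12 were present as symbols and 6 were tested in each experiment, and 0 were called in either, with 0 in the Kir2.1 experiment and 1 in the PEA experiment at an unadjusted p below 0.05. The 2 genes of largest log2 fold change in the Kir2.1 experiment were Mup5 (1.72, SE 2.23, adjusted p = 0.854) and Mup4 (1.47, SE 2.70, adjusted p = 0.907), whose highest mice were again Kir2.1 mouse 1 (295 and 571) and control mouse 2 (58.8 and 107). In the PEA experiment they were Lcn2, a lipocalin that binds bacterial iron carriers (0.71, SE 0.24, limma adjusted p = 0.213), and Mup5 (0.33, SE 0.60, limma adjusted p = 0.837). Lcn2 was the 1 gene with an unadjusted p below 0.05 (p = 0.0124 by limma, exact permutation p = 0.0286). The groups did not overlap for 1 of 6 genes in each experiment, Rbp4 for Kir2.1 and Lcn2 for PEA. The shares over all genes tested were 16.3% and 9.32%. The epididymal lipocalin genes Lcn5 and Lcn10 were listed at 0 in every mouse of both experiments.

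The 4 X-linked neighbours were added after values had been seen. None was called in either experiment. In the PEA experiment 5430402E10Rik was 7273 to 11092 without exposure and 7143, 3165, 237 and 3603 in exposed mice 1 to 4 (log2 fold change of -2.07, SE 0.83, limma adjusted p = 0.290). Its unadjusted limma p was 0.0321 and its exact permutation p was 0.0286, the smallest possible. The groups did not overlap, which was so for 9.32% of all genes tested. Exposed mouse 3 was far below the rest, and without it, an omission chosen after seeing the data, the log2 fold change was -1.02. Gm14744, whose transcript is 98.9% identical to that of 5430402E10Rik, lay between 12670 and 29717 over all 8 mice (log2 fold change -0.01, SE 0.26). Of the 150-base stretches of 5430402E10Rik, 17.3% were shared with Gm14744.

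The labelled tissue was checked against cell-type markers. Omp, the marker of mature olfactory sensory neurons, was at least 6087 and Cyp2g1, of sustentacular cells, at least 17983 in every mouse. Mature-neuron markers summed to 106214 to 119559 in the control mice and 77464 to 88845 in the Kir2.1 mice, with 1 of 6 called, and blood markers to 5947 to 10654 and 11321 to 17281, with 0 of 3 called. All 6 mature-neuron markers were lower in Kir2.1 mice and all 3 blood markers higher, each with an unadjusted limma p below 0.05. The groups did not overlap for 5 of 6 and 2 of 3, against 16.3% of all genes tested. The mean log2 value of vomeronasal receptor genes was 6.06 in control mouse 1 of the Kir2.1 experiment, against 2.35 to 2.45 in the other 5 mice, and ranged from 1.38 to 5.77 in the unexposed and from 1.38 to 5.33 in the exposed mice of the PEA experiment. Its part in the members' values was not tested beyond a covariate, which in the Kir2.1 experiment mainly sets control mouse 1 apart. Sustentacular, immature-neuron and respiratory markers had 0 called in either experiment. Respiratory markers summed to 9899 to 12299 in the control mice and 12702.5 to 18324 in the Kir2.1 mice. Of these, 1 of 4 tested had an unadjusted limma p below 0.05. In the PEA experiment this held for 2 of 4 respiratory, 2 of 6 sustentacular and 1 of 3 immature-neuron markers. The groups did not overlap there for 2 of 4, 2 of 6 and 0 of 3, against 9.32% of all genes tested. Gland markers of the PEA experiment, with sums of 531472 to 1310180 unexposed and 527209 to 936818 exposed, had 0 of 12 called. An unadjusted p below 0.05 was found for 4 of 12, and 9 of 12 were above 0 (median log2 fold change 0.31, beside -0.02 over all genes).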

How the data were processed

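A normalized count table was used for each experiment. Per the study's methods and the labels, the authors made poly-A selected, unstranded 40 bp libraries for the Kir2.1 experiment and ribosomal RNA-depleted, stranded 150 bp libraries for the PEA experiment, estimated transcripts with Salmon 1.3.0, summed them per gene and scaled them with DESeq2 1.30.0. The deposited values are a normalized signal for each gene rather than reads, and the depth of each library is unknown. Salmon is described as run with a reverse-stranded setting, although the Kir2.1 libraries were unstranded, and the effect of this was not tested.

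The planned test needed no counts. Genes with a mean of at least 10 were tested per experiment with limma 3.58.1 in R 4.3.3 (pseudocount 1, mean-variance trend, Benjamini-Hochberg adjustment over all genes tested, threshold 0.05) after a check on simulated data. Exact two-sided permutation tests were used for single values. Other steps used Python 3.11.15 (scipy 1.17.1, pandas 2.3.3, numpy 2.4.6, matplotlib 3.10.9). Positions and transcripts came from GENCODE on GRCm38 and promoter windows from RefSeq (GRCm38), in which all 7 members were matched. Text names every member, counts and the 2 largest changes of a wider lipocalin list, the 5 most similar genes per member, and cell-type markers. Members and lists were chosen with earlier results of these data known. Alternatives were other pseudocounts and filters, no trend, quantile normalization, a replicate block, covariates and mice left out. Protein sequences were not used here.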

Additional observations from a re-analysis of the deposited data

Results flagged for a closer look

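Obp1b in unexposed mouse 1 of the PEA experiment, at a normalized count of 845, stood far from the other 3 unexposed mice (242 to 338) by Dixon's test for single outlying samples. This was 1 of 12 groups tested, and chance flags about 1 in 20. The same mouse was the highest unexposed mouse in Obp1a (5284), where the gap did not pass the test. The groups of 3 mice in the Kir2.1 experiment were too small for this test.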

How the results depend on the processing

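The count of members called was 0 under all 16 alternatives in the Kir2.1 experiment and all 17 in the PEA experiment, while the number of all genes called ranged from 9 to 73 and from 19 to 52. The lowest adjusted p of any member by limma was 0.454 (Lcn3, with the gland covariate) and 0.327 (Obp2b, without PEA-exposed mouse 3). The signs of several fold changes were not stable, and none of these values passed the test. In the Kir2.1 experiment, the log2 fold change of Lcn11 was -0.19 with the vomeronasal receptor covariate and -0.47 with the gland covariate, which also gave -0.23 for Obp1a and -0.43 for Obp1b. The gland covariate moved the others farther from 0 (Lcn3 2.67, Obp2a -1.45, Obp2b 1.10), as did the vomeronasal covariate (2.61, -0.84 and 1.26). The vomeronasal covariate was 6.06 in control mouse 1 and 2.35 to 2.45 in every other mouse, so it mainly sets control mouse 1 apart. Leaving out control mouse 1 gave nearly the same values (Lcn11 -0.14, Lcn3 2.59, Obp2a -0.82, Obp2b 1.26). Vomeronasal content and other traits of that mouse therefore cannot be told apart. Leaving out control mouse 2 and Kir2.1 mouse 1 together gave -0.76 for Lcn3 and -0.92 for Obp2b. The gland covariate and this omission were chosen after seeing the data, and the cause of these changes was not tested. Leaving out 1 mouse at a time gave a range of -0.47 to 2.15 for Lcn11 (below 0 without control mouse 1 or Kir2.1 mouse 1), -0.65 to 2.59 for Lcn3 (below 0 without control mouse 2), -0.35 to 2.55 for Obp1a (below 0 without Kir2.1 mouse 1), -1.57 to 0.38 for Obp2a (above 0 without control mouse 2 or Kir2.1 mouse 2), -0.65 to 1.26 for Obp2b (below 0 without control mouse 2) and 0.082 to 2.31 for Obp1b. In the PEA experiment it gave -0.29 to 0.071 for Lcn11 (above 0 without exposed mouse 2), -0.10 to 0.41 for Lcn3 (below 0 without control mouse 4 or exposed mouse 3), -0.051 to 0.70 for Obp1b (below 0 without exposed mouse 3), 0.0037 to 0.59 for Obp1a, -0.72 to -0.24 for Obp2b and -0.39 to 0.43 for Obp2a (below 0 without control mouse 3 or exposed mouse 1, 3 or 4). In the Kir2.1 experiment Obp1b was not tested, and has no value, with a mean of at least 50 required, without Kir2.1 mouse 1 or with both high mice left out.

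The replicate block, which pairs mice by number, left 0 members called in either experiment, and 9 and 23 of all genes in place of 70 and 31. The correlation of deviations from group means between mice of the same number was -0.06, -0.01 and 0.16 for Kir2.1. For PEA it was 0.13, -0.02, -0.05 and 0.10. These values cannot settle whether mice of the same number shared a litter, which is not given in the sources used here. The log2 fold change of Lcn11 under the block was 0.90 and -0.15, with adjusted p = 0.894 and 0.744 by limma.

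With 3 and 4 mice a group and this spread, the intervals in the Kir2.1 experiment include changes of over 10-fold for Lcn11, and a small change of a member was not detectable. The depth of the libraries is unknown, so no counting error can be given.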
